A study of Arabidopsis thaliana with 8 samples.

Results

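The mitochondrial genome of Arabidopsis thaliana was covered by 3670 of the 1196681 windows of 100 bp into which the small RNAs (sRNAs) of the genome had been counted. Its windows were taken as every window whose identifier placed it on the mitochondrial chromosome (chrM), with all 9 lengths from 18 to 26 nt, so that no measured value entered the choice. The identifiers could be checked against the chloroplast and the 5 nuclear chromosomes, whose windows matched the reference assembly in number. The mitochondrial ones did not: the reference, TAIR10.1, has 367808 bp and would fill 3679 windows, 9 more than were counted. Positions on chrM are therefore given in the coordinates of the deposited windows, and no gene of the reference was placed on them by position.

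Small RNAs were sequenced from whole seedlings of 18 days in 8 libraries, 2 for each of 4 genotypes. The genotypes hot3-2 and hot3-3 each carry a T-DNA insertion in HOT3, which encodes eIF5B1, a cytoplasmic translation initiation factor that acts late in the maturation of 18S rRNA. The line called HOT3-EYFP is hot3-2 with a transgene that expresses a HOT3-EYFP fusion from the HOT3 promoter, so it still holds the hot3-2 insertion. WT is Col-0. Below, hot3-2 and hot3-3 together are called the hot3 alleles, and HOT3-EYFP and WT together functional HOT3. The labels number the 2 libraries of a genotype without saying whether they came from separate cultures, so p-values measure the spread between these libraries, and libraries of 1 genotype were treated as independent. In whole seedlings, fewer mitochondria or cells and less RNA in each cannot be told apart.

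Plant mitochondria keep a small genome that encodes ribosomal RNAs, transfer RNAs and a few subunits of the respiratory complexes, together with some ribosomal proteins and factors for cytochrome c maturation. Over evolution it has taken up pieces of plastid DNA, among them tRNA genes that the mitochondrion uses, and pieces of it have moved into the nucleus, the largest in Arabidopsis lying near the centromere of chromosome 2. Nuclear silencing in plants makes sRNAs of set lengths with Dicer-like enzymes, 21 and 22 nt at many transcripts and 24 nt at transposons. The short RNAs of organelles are known instead as breakdown products of longer transcripts and as short stretches kept from nucleases by RNA-binding proteins, which the reference annotates as cosRNAs (clustered organellar short RNAs).

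Because these exchanges leave the same sequence in more than 1 genome, several of the mitochondrial windows with most sRNAs could be paired with sequences of the plastid or the nucleus. Of the 367788 positions at which a 21-nt sequence starts in the mitochondrial reference, 0.637% had the same 21 nt in the plastid, 73.0% had them in the nucleus, 10.5% had them again elsewhere in the mitochondrion, and 26.4% had them nowhere else. Some of their 21-nt sequences were also found in the plastid for 6 of 22 tRNA genes, 2 of 3 rRNA genes and 1 of 5 genes for cytochrome c maturation. The shared part was 2.30% of these sequences in the 18S rRNA gene, 0.508% in the 26S rRNA gene and 1.60% in ccmC. In the 6 tRNA genes it was 11.1% to 98.1%. No 21-nt sequence of the plastid was found in the 14 annotated segments of complex I genes, where nad1, nad2 and nad5 have several each. Nor was any found in the 1 complex III gene, the 3 complex IV genes or the 6 complex V genes. The 7 ribosomal protein genes, matR and mttB held none either. The sequences that carry the results below are printed from the plastid (C) and chromosome 2 of TAIR10.1, 5′ to 3′, with capitals for each base that differs from its partner in the mitochondrial reference. The first is 300 nt of the plastid 23S rRNA gene (C:105200-105499, plus strand), all of which the mitochondrion repeats with 1 extra base. The tRNA genes are plastid tRNA-His (C:4-76, minus strand, 71 of 73 bases shared) and plastid tRNA-Asn (C:109013-109084, minus strand, 71 of 72 shared). Beside them stand the chromosome 2 copies of mitochondrial tRNA-Asn (AT2G07764, 2:3496440-3496511, plus strand) and tRNA-Gly (AT2G07756, 2:3444363-3444434, minus strand), which matched the mitochondrial reference at all 72 bases.
plastid rrn23S piece: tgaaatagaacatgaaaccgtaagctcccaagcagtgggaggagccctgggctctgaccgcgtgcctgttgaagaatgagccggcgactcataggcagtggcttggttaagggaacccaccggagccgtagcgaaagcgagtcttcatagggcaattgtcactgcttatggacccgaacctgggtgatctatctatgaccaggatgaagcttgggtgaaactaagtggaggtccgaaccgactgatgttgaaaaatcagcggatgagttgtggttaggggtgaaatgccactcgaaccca
plastid trnH: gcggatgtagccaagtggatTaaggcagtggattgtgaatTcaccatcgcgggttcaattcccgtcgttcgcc
plastid trnN: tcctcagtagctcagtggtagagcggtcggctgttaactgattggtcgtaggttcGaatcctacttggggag
chromosome 2 tRNA-Asn copy: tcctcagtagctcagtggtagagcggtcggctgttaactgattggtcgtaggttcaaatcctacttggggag
chromosome 2 tRNA-Gly copy: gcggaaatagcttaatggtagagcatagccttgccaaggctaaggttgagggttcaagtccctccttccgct

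Libraries held between 6793502 and 8210328 counts over all windows, and between 44160 and 67829 of them fell on chrM. Mitochondrial sRNAs were thus between 0.63% and 0.87% of a library. In CPM, the counts in every 1000000 of the library, they were 6300.5 and 6871 in hot3-2, 7467 and 7408 in hot3-3, 8261 and 8696 in HOT3-EYFP, and 6921 and 6590.4 in WT. HOT3-EYFP stood above the other 3 genotypes, whose libraries lay between 6300.5 and 7467 CPM, and the hot3 alleles overlapped with functional HOT3. The hot3 alleles averaged 7012 ± 545 CPM and functional HOT3 averaged 7617 ± 1019 CPM (SD, n = 4 each), a log2 difference of -0.11 that an exact two-sided permutation test over the libraries did not separate (p = 0.371). The smallest p that 4 libraries against 4 can give is 0.0286. The other test of the same sum was edgeR's quasi-likelihood test, described next, in which a sum is called at an adjusted p under 0.05 with no fold limit. It called this difference (log2 -0.11, SE 0.029, adjusted p = 0.0323), with adjusted p between 0.00915 and 0.096 with 1 library left out. The difference was not called without hot3-2 replicate 1, either library of hot3-3, HOT3-EYFP replicate 2 or WT replicate 1 (log2 -0.12 to -0.082).

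In edgeR's quasi-likelihood test of the chrM sum within the table of all windows, with total counts as library size, HOT3-EYFP exceeded WT by 0.33 on the log2 scale (SE 0.041, adjusted p = 0.00438) and hot3-2 by 0.36 (adjusted p = 0.000708). These sizes depended on the library size: with TMM, which sets it from the bulk of all windows, they were 0.76 and 1.02, both called. Without WT replicate 2 the first difference was 0.29 and no longer passed (edgeR adjusted p = 0.0512). In the same edgeR test the log2 difference was -0.04 for hot3-2 against WT (adjusted p = 0.673) and 0.14 for hot3-3 against WT (adjusted p = 0.112). How far these hold depended on 8 windows, chosen after their values were seen, that were paired with plastid sequences as described below. The sequence of these chrM windows was not read, so windows called shared with the plastid are those with this pairing. Those 8 windows held 1248, 1794, 2011 and 1925 CPM in the hot3 alleles, and 2597, 2923, 2334 and 1969.6 CPM in functional HOT3. Without them the sum was 5053 and 5077 CPM in hot3-2, 5456 and 5483 in hot3-3, 5665 and 5772 in HOT3-EYFP, and 4588 and 4621 in WT. All 3 genotypes then stood above WT by the same edgeR test, by log2 0.14 for hot3-2 (adjusted p = 0.00283), 0.25 for hot3-3 (adjusted p = 6.44e-05) and 0.31 for HOT3-EYFP (adjusted p = 4.49e-05). HOT3-EYFP then exceeded hot3-2 by 0.18 (edgeR adjusted p = 0.000496) in place of 0.36. The difference of the hot3 alleles from functional HOT3 changed sign to 0.04 without the 8 windows (exact permutation p = 0.657, edgeR adjusted p = 0.0931).

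**Figure D1:**
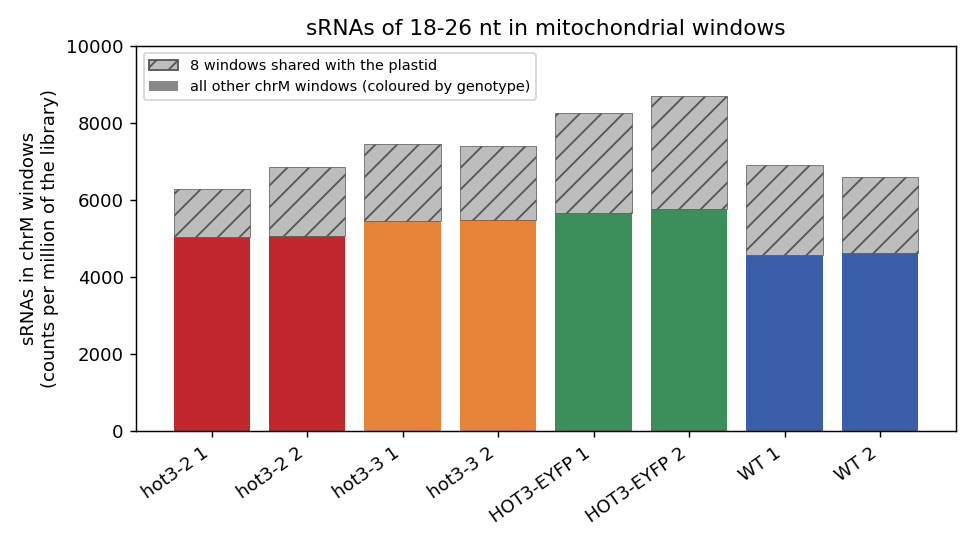
Mitochondrial sRNAs in each of the 8 libraries, in CPM (y axis), by genotype and replicate (x axis), with the 8 windows shared with the plastid hatched in grey and the other chrM windows coloured. Coloured parts differ little between the 2 libraries of a genotype, while the hatched part is 1248 CPM in hot3-2 replicate 1 and 1794 CPM in hot3-2 replicate 2.

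Mitochondrial sRNAs were also set against other compartments in the same library, among them the nuclear 45S rDNA, the repeated genes for cytoplasmic rRNA. The log2 ratio of chrM to 45S rDNA counts was between -5.78 and -5.63 in the hot3 alleles, and between -6.07 and -5.91 in functional HOT3. The ranges did not overlap, and the difference was 0.26 (exact permutation p = 0.0286, the smallest the design allows), or 0.41 without the 8 windows shared with the plastid. Against chloroplast windows the difference of the hot3 alleles from functional HOT3 was -0.10 (exact permutation p = 0.4), and against nuclear windows outside the 45S rDNA it was -0.50 (exact permutation p = 0.114). The comparison with the 45S rDNA was added to those with chloroplast and nuclear windows and had the lowest p. No p-value of these ratios was adjusted over the compartments. The counts of 45S rDNA windows themselves were 33.7% to 40.8% of a library in the hot3 alleles, and 44.1% to 52.2% in functional HOT3.

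The lengths of mitochondrial sRNAs were nearly even. Averaged over the 8 libraries, 12.1% of chrM counts had 18 nt, 11.4% had 19 nt, 12.5% had 20 nt, 10.7% had 21 nt and 12% had 22 nt. A further 10.3% had 23 nt, 14.1% had 24 nt, 8.72% had 25 nt and 8.26% had 26 nt. The most common length in a library was between 1.48 and 1.97 times as common as the least common one, against 3.20 to 7.97 times in the chloroplast and 8.70 to 14 times in nuclear windows outside the 45S rDNA. Each of the 9 lengths differed in share from both of those compartments in all 8 libraries, in an exact paired sign-flip permutation test over the libraries (p = 0.00781 for each, the smallest it can give). Without the 10 windows with most counts in each compartment, 6 of the 9 lengths differed from the chloroplast and all 9 from the nucleus. The widest gap from the chloroplast lay at 22 nt, 12% on chrM against 32.1%. The widest from the nucleus lay at 24 nt, the length of nuclear heterochromatic siRNAs, 14.1% on chrM against 32.7%. Lengths of 21 to 24 nt together made 45.3% to 49.5% of chrM counts, against 70.5% to 76.9% of nuclear ones and 44.0% to 47.8% of those of the 45S rDNA. The 45S rDNA was also nearly even, its most common length being 1.65 to 2.56 times as common as its least common one.

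**Figure D2:**
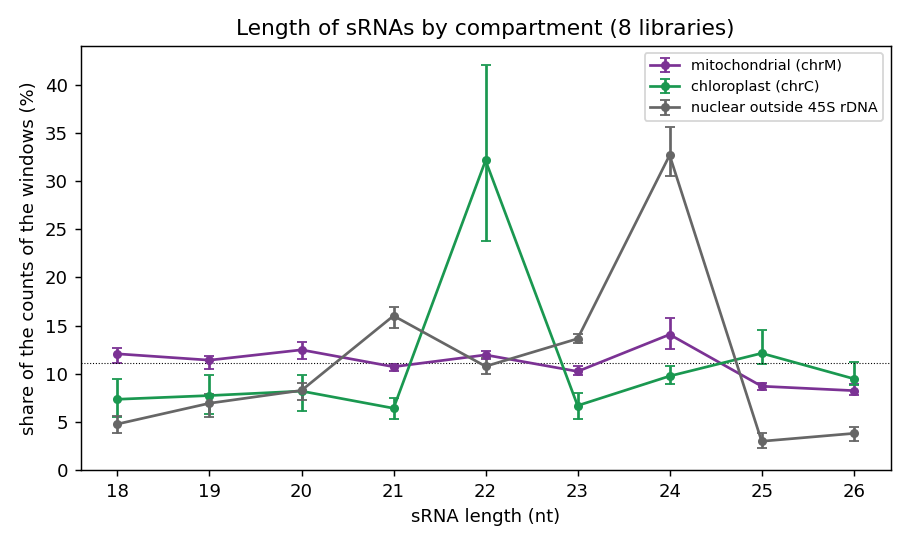
Share of counts (y axis, percent) at each sRNA length (x axis, nt) for mitochondrial, chloroplast and nuclear windows outside the 45S rDNA, with points for the mean of 8 libraries, bars from the lowest to the highest library, and a dotted line where all lengths would be equally common. The mitochondrial line stays between 8.26% and 14.1%, with no peak like the chloroplast one at 22 nt (mean 32.1%, libraries 23.8% to 42.0%) or the nuclear one at 24 nt (32.7%).

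The nuclear copy of mitochondrial DNA had another length profile than chrM as a whole. On chromosome 2, a copy of mitochondrial DNA found by sequence lies at 2:3239038-3509765 (270.7 kb, 2708 windows), where 17 matches of at least 2000 bp and 99% identity covered 72.2% of the mitochondrial reference. Its windows had 29.5% of their counts at 24 nt, against 14.1% over all chrM windows. In the paired exact permutation test 8 of 9 lengths differed (adjusted p = 0.00879 for each). All chrM windows entered, also those without a match on chromosome 2, so the 2 sides were not the same DNA throughout. The length that did not pass was 21 nt, with 10.7% on chrM and 10.5% on chromosome 2 (exact permutation p = 0.539). Windows of the chromosome 2 copy held 1527 to 1709 CPM in the hot3 alleles, and 1200.0 to 1430.3 CPM in functional HOT3, a log2 difference of 0.30. In CPM, nuclear windows outside the rDNA were also higher in the hot3 alleles, by log2 0.38. The rise of the copy was thus no larger than theirs, and a response of its own was not tested. The chrM windows overlapped between the same groups, and their ratio to the chromosome 2 copy differed by -0.41 (exact permutation p = 0.143).

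By length, the hot3 alleles were compared with functional HOT3 only, and neither the level nor the share of any of the 9 lengths passed after adjustment. The lowest p among the 9 levels was at 24 nt, with 962, 1015, 938 and 962 CPM in the hot3 alleles, and 1073, 1113, 1071 and 1041 CPM in functional HOT3. The groups did not overlap, with a log2 difference of -0.15 (exact permutation p = 0.0286, adjusted p = 0.257 over the 9 lengths). Among the shares, 18 nt made 12.5% to 12.7% of chrM counts in the hot3 alleles, and 11.2% to 11.9% in functional HOT3, 1.05 percentage points more in the alleles (exact permutation p = 0.0286, adjusted p = 0.257). Single genotypes were not tested by length. The 24-nt share was higher in hot3-2 and WT than in hot3-3 and HOT3-EYFP without overlap, being 15.3% and 14.8% in hot3-2, 12.6% and 13% in hot3-3, 13% and 12.8% in HOT3-EYFP, and 15.5% and 15.8% in WT.

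Within the mitochondrial genome the sRNAs were spread over nearly all windows and yet concentrated in few. At least 1 count fell in 3545 of the 3670 windows (96.6%), the median window had a mean of 1.625 counts, and 151 windows had a mean of at least 20. The 37 windows with most counts, 1% of them, held between 54.2% and 69.0% of chrM counts in a library. That was less concentrated than nuclear windows outside the 45S rDNA, where 1% of windows held 69.5% to 71.2% (8.26 percentage points lower on chrM, exact sign-flip permutation p = 0.00781). Against the chloroplast, with 56.4% to 74.0%, the difference was -2.70 points (exact permutation p = 0.531).

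The 10 highest windows alone held 27.1% to 40.6% of chrM counts, and 5 of them were neighbours. The highest, chrM:365000-365099, averaged 776 CPM and was also the highest for each length except 20 nt. It had 563, 608, 606 and 601 CPM in the hot3 alleles, and 1080.4, 1036, 877 and 838 CPM in functional HOT3. Every library of the alleles was lower than every library with functional HOT3. Its neighbour chrM:365100-365199, sixth in rank, had 154, 145, 150.5 and 153 CPM in the alleles, and 301, 300.0, 257 and 259 CPM in functional HOT3, again without overlap. So did the third, chrM:362900-362999, with 169, 164, 178 and 176 CPM in the alleles, and 358, 353, 284 and 296 CPM in functional HOT3.

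The windows of ranks 2 and 4 showed another pattern. At chrM:364700-364799 the CPM values were 163 and 370.4 in hot3-2, 364 and 356 in hot3-3, 322 and 734 in HOT3-EYFP, and 655 and 323 in WT, so that libraries of 1 genotype differed by over 2-fold in 3 of the 4 genotypes. At chrM:364800-364899 they were 105 and 316 in hot3-2, 338 and 349 in hot3-3, 218 and 232 in HOT3-EYFP, and 190 and 175 in WT. Both lie in the stretch that is paired with the plastid below. So do the windows of ranks 1, 6 and 8. The window of rank 7 is paired below with plastid tRNA-His. The fifth window, chrM:361300-361399, had 217, 242, 282 and 278 CPM in the hot3 alleles, and 220.0, 237, 137 and 163 CPM in functional HOT3. Here the groups overlapped in CPM. WT lay below both alleles, while HOT3-EYFP lay within the range of hot3-2.

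To take the library size out, each of the 10 windows was also set against the chrM counts of its library. On that scale the hot3 alleles were lower than functional HOT3 without overlap in 4 of the 10 windows, by log2 -0.57 in the first, -0.79 in the third, -0.77 in the sixth and -0.30 in the tenth, and higher without overlap by 0.57 in the fifth (exact permutation p = 0.0286 for each of the 5). Relative to chrM counts, 2.39% of all windows tested were lower in this way and 14.1% higher. None of the 10 passed after adjustment over the 10 windows, the lowest adjusted p being 0.0571. The other 5 had log2 differences of -0.56, 0.42, 0.09, 0.10 and -0.09, all with overlap between the groups.

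**Figure D3:**
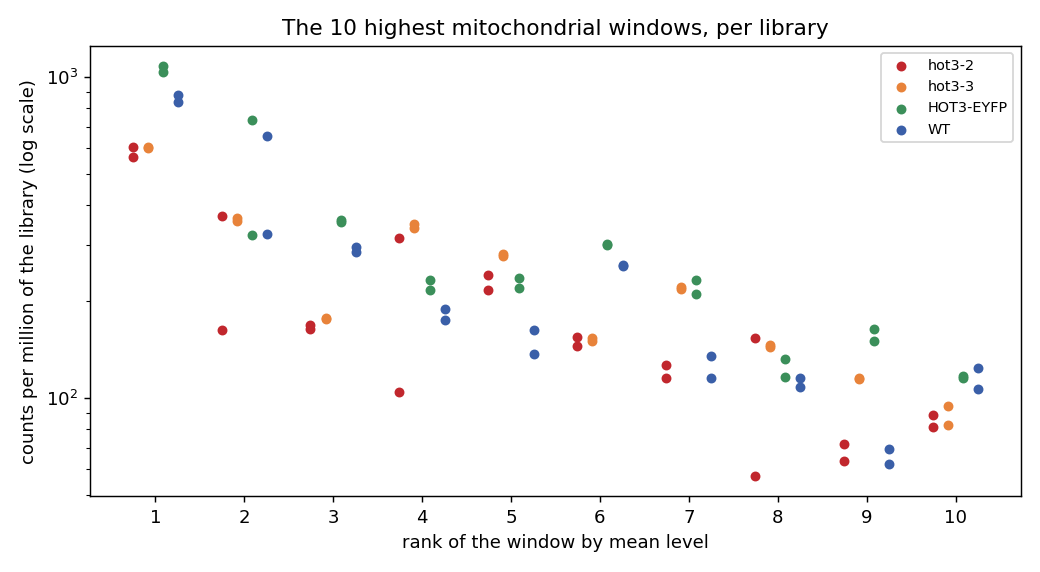
CPM (y axis, log scale) in the 10 mitochondrial windows with the highest mean (x axis, by rank), with 1 point for each library, coloured by genotype. The alleles hot3-2 and hot3-3 lie below HOT3-EYFP and WT at ranks 1, 3 and 6, and the 2 libraries of a genotype part widely at rank 2 (163 and 370.4 CPM in hot3-2).

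Windows that averaged 20 counts or more formed 3 unbroken or nearly unbroken stretches of 5 windows or more, which were picked from these values and get no test. The longest, chrM:8900-12299 (34 windows), held 20.7% to 26.4% of chrM counts. Its CPM was 1518 and 1522 in hot3-2, 1951 and 1953 in hot3-3, 2179.7 and 2250.4 in HOT3-EYFP, and 1431 and 1421 in WT, so hot3-3 and HOT3-EYFP stood above hot3-2 and WT. A second stretch, chrM:361000-363499 (25 windows), held 19.3% to 22.9%, with 1309 to 1513 CPM in the hot3 alleles, and 1391 to 1938 CPM in functional HOT3. The third, chrM:364600-365199 (6 windows), held 17.4% to 31.2%, with 1099 to 1685 CPM in the alleles, and 1779 to 2529 CPM in functional HOT3. In the first stretch 18 nt was the most common length (13.3%) and 26 nt the least common (9.29%), so these sRNAs too were of all lengths.

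The mitochondrial reference has a similar spacing of long RNA genes, read across the ends of the circle. There, rrn5 and rrn18, for 5S and 18S rRNA, span 2223 bp, and 1395 bp after rrn18 comes the 510 bp that resemble the plastid 23S rRNA gene (508 bases identical to it). The 26S rRNA gene, rrn26, has 3169 bp and lies 10668 bp beyond that piece. On chrM the gap from the second stretch to the third was 11 windows and the one from the third around the ends to the first was 107 windows. The sequence of the build used for the deposited windows was not used here, so a gene name for these stretches rests on spacing alone and was not tested.

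Single windows had profiles that the even total hides. Of 87 windows that averaged 50 counts or more, the share of 21 to 24 nt ran from 9.71% to 90.8%, with a median of 43.5% (44.4% if the 9 lengths were equally common). In 11 of them 1 length made over 30% of counts. The most common length was 18 nt in 25 windows and 26 nt in 17, the ends of the range, but 21 nt in 6 and 24 nt in 8. Lengths above 26 nt were not analysed here.

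The lowest share of 21 to 24 nt belonged to chrM:359700-359799, where 20 nt alone made 70.6% of counts and 121 CPM. In this window, paired below with plastid tRNA-His, the 20-nt RNAs were 13.3% of all 20-nt counts of chrM. In chrM:361300-361399 the counts fell with length, with 31.8% at 18 nt, 28.0% at 19 nt and 19.6% at 20 nt. Then came chrM:361100-361199, with 48.0% at 26 nt and 22.4% at 25 nt, chrM:104400-104499 with 42.7% at 25 nt, and chrM:28900-28999 with 35.6% at 26 nt. All 5 windows were thus made largely of RNAs outside 21 to 24 nt, at different lengths.

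At the other end, chrM:19800-19899 had 48.3% of its counts at 24 nt and 29.5% at 23 nt, with 0.189% at 26 nt, a profile no other window among the 87 came near: the next highest share of 21 to 24 nt was 61.8%. Next were chrM:99000-99099, with 29.1% at 23 nt and 18.8% at 22 nt, and chrM:12200-12299, with 24.6% at 23 nt and 19.8% at 22 nt. Both had a low share of 24 nt (2.51% and 3.77%) and of 19 nt (1.85% and 2.09%). In chrM:188000-188099 the peak was at 25 nt (25.5%) beside 24 nt (21.5%), and in chrM:46900-46999 at 22 nt (20.0%).

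**Figure D4:**
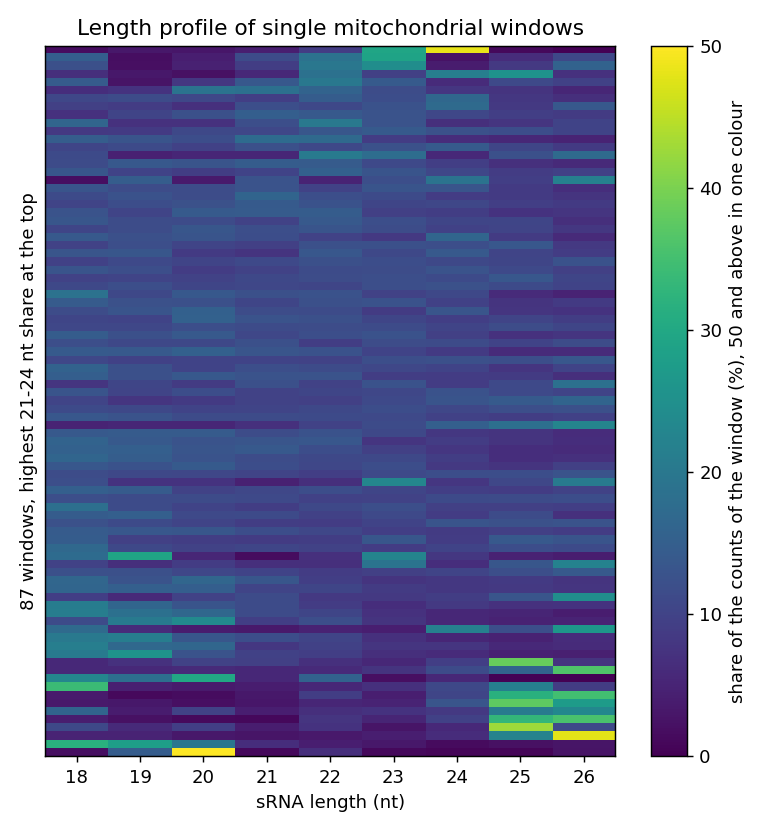
Length profiles of the 87 mitochondrial windows that averaged 50 counts or more (1 row each, ordered by the share of 21 to 24 nt, highest at the top), with sRNA length on the x axis (nt) and colour for the percent of the window's counts, capped at 50. Most rows are even, and the exceptions lie at the top (48.3% at 24 nt) and at the bottom (70.6% at 20 nt).

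Windows of other chromosomes that share their sequence with mitochondrial DNA were paired with certain chrM windows, and for 2 sequences, the 23S rRNA piece and tRNA-Asn, counts moved between the copies from library to library. The pairs were chosen after their values were seen, from sequence matches of the other copy to the mitochondrial reference and the likeness of the 2 length profiles (a cosine of 0.987 or more, where 1 is the same shape), and get no test. The 6 windows of chrM:364600-365199 were paired with the piece of the 23S rRNA gene in both copies of the plastid inverted repeat, 4 windows in each. In each repeat the sequence match runs past these 4 windows at both ends. The plastid windows at its ends also held counts but were not paired, so the sum below does not cover the whole shared sequence. Summed over the paired windows of the 3 copies, there were 1674, 1723, 1744 and 1734 CPM in the hot3 alleles, and 3324, 3277, 2797 and 2779.6 CPM in functional HOT3. The hot3 alleles averaged 1718 CPM and functional HOT3 averaged 3044 CPM, a log2 difference of -0.82, and the groups did not overlap. The 2 libraries of a genotype differed by at most 0.04 on the log2 scale in this sum, against up to 0.59 in the mitochondrial windows alone.

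Of that sum, the mitochondrial windows held 65.7% and 96.1% in hot3-2, 96.7% in both libraries of hot3-3, 64.9% and 77.2% in HOT3-EYFP, and 77.3% and 64.0% in WT. The shift took place in whole windows. At chrM:364700-364799 the counts were 1139 and 2754 in hot3-2, 2760 and 2769 in hot3-3, 2647 and 5159 in HOT3-EYFP, and 4449 and 2343 in WT. The plastid window C:105200-105299 had 613 and 0 counts in hot3-2, 0 and 0 in hot3-3, 1427 and 0 in HOT3-EYFP, and 0 and 1082 in WT, so it held counts in 1 library each of hot3-2, HOT3-EYFP and WT, where the mitochondrial count was the lower of the genotype. In hot3-3, where both plastid counts were 0, the mitochondrial counts were nearly equal. At chrM:364800-364899 the move split by genotype as well, since C:105300-105399 had 862 and 40 counts in hot3-2 and 45 and 39 in hot3-3, against 2057 and 1637 in HOT3-EYFP and 1313 and 1566 in WT. How reads that match several places were assigned in the window counts is not given in the sources used here, and its part in these values was not tested.

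Asparagine tRNA moved in the same way among 4 copies. The sum of chrM:105800-105899, the 2 plastid copies and the chromosome 2 copy printed above was 102, 93.6, 111 and 111 CPM in the hot3 alleles, and 218, 193, 224 and 225 CPM in functional HOT3 (log2 -1.05). The groups did not overlap. The mitochondrial window held 21.7% and 23.6% of it in hot3-2, 96.8% and 24.4% in hot3-3, 94.5% and 95.1% in HOT3-EYFP, and 24.8% and 24.9% in WT. The chromosome 2 window had 181, 188, 0 and 221 counts in the alleles, and 0, 0, 355 and 374 in functional HOT3. Read alone, the mitochondrial window had 813 and 210 counts in the 2 libraries of hot3-3.

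**Figure D5:**
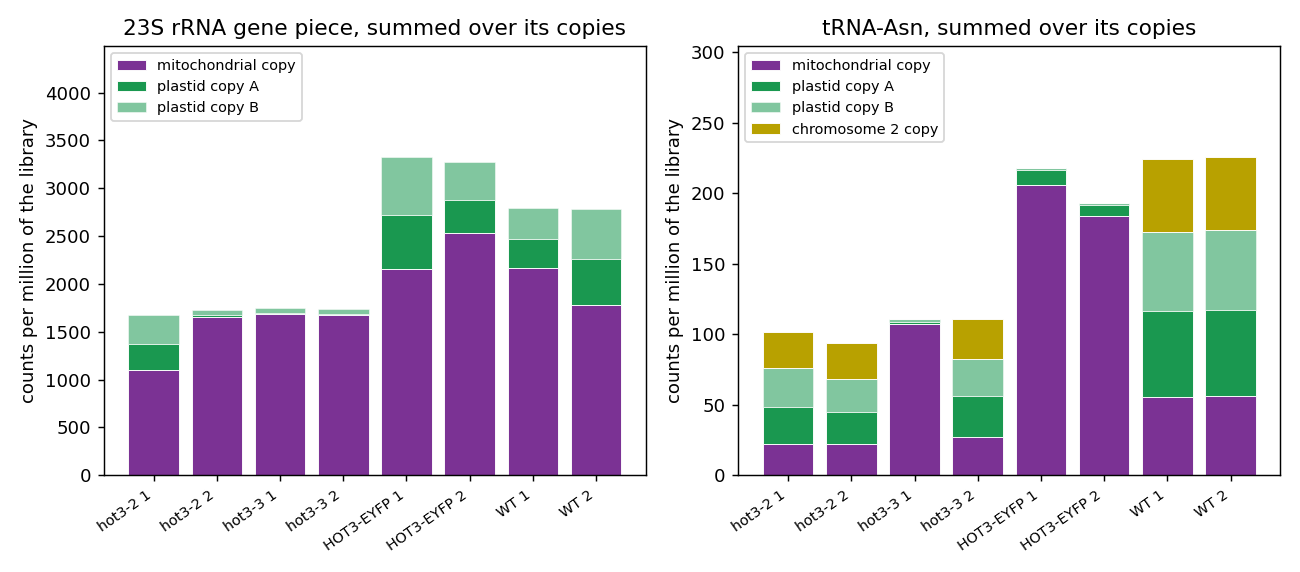
CPM (y axis) of the 23S rRNA gene piece and of tRNA-Asn, summed over the paired windows of their copies, in each library (x axis), with bars divided by the copy that held the counts. Bar heights fall in 2 groups, 1674 to 1744 CPM in the hot3 alleles and 2779.6 to 3324 CPM in HOT3-EYFP and WT for the piece, while the purple mitochondrial part varies between libraries of 1 genotype.

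Histidine tRNA was mostly counted on the plastid. Together, chrM:359700-359799 and the plastid tRNA-His window had 1913, 1756, 2709 and 2701 CPM in the hot3 alleles, and 3045, 2840.1, 2610.0 and 2566 CPM in functional HOT3, with overlap between the groups. The mitochondrial window held 4.42% to 8.22% of it, with the same peak at 20 nt (profile cosine 0.9997).

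For 7 further windows the partner lay in the chromosome 2 copy, and counts were divided nearly evenly, 40.6% to 61.7% on chrM in every library. The pair of chrM:53700-53799, matched to mitochondrial tRNA-Gly and AT2G07756, had 92.2, 83.8, 137 and 128 CPM in the hot3 alleles, and 93.4, 85.2, 59.0 and 60.2 CPM in functional HOT3. Both libraries of hot3-3 were the highest and both of WT the lowest. The pair of chrM:83000-83099, matched to rps4, a ribosomal protein gene, had 28.1, 23.7, 31.9 and 22.7 CPM in the alleles, and 12.5, 12, 10.5 and 10.6 CPM in functional HOT3 (log2 1.21, no overlap). The pair of chrM:99000-99099, matched to annotated cosRNAs, had 44.9, 40.3, 43.2 and 46.4 CPM in the alleles, and 21.9, 24.8, 18.3 and 21.1 CPM in functional HOT3 (log2 1.03, no overlap). The alleles also stood above functional HOT3 without overlap in the pair of chrM:46900-46999 (log2 0.71) and that of chrM:98900-98999 (log2 0.80), both matched to cosRNAs. These 2 pairs and that of chrM:99000-99099 were all matched to cosRNA M7. Since chrM:98900-98999 and chrM:99000-99099 are also neighbours, these pairs are not separate cases. Of all single windows tested, 14.8% had the 4 allele libraries above the other 4 in CPM, and 3.52% had them below.

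The remaining 2 of the 7 showed other orders. The pair of chrM:104400-104499, matched to tRNA-Pro, had 26.7, 21, 28.0 and 24.3 CPM in the hot3 alleles, and 32.9, 32.7, 37.5 and 36.3 CPM in functional HOT3, lower in the alleles without overlap (log2 -0.49). The pair of chrM:76600-76699, matched to nad6, which encodes a complex I subunit, had 24 to 25.4 CPM in the alleles, within the 19.5 to 28.6 CPM of functional HOT3.

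A window-by-window test asked which mitochondrial windows differed between genotypes. At least 10 counts in at least 2 libraries were held by 548 of the 3670 windows, and these were fitted together with all 53419 windows of the genome that passed, by edgeR's quasi-likelihood test with TMM normalization. A window was called at a fold change of 2 and a Benjamini-Hochberg adjusted p under 0.01. Since a window could pass through 1 genotype alone, the 548 do not stand for all mitochondrial windows. For hot3-2 against WT, 1 mitochondrial window was called higher and 5 lower, with 0.629% of all windows tested called higher and 0.857% lower. For hot3-3 against WT, 4 were higher and 2 lower, with 0.62% and 0.545% over all windows. These shares, 1.09% of chrM windows in each comparison, are near those of the genome. Few as they were, they varied with the libraries: 2 windows were called for hot3-2 without WT replicate 2, and 2 or 3 for hot3-3 without any 1 library of hot3-3 or WT.

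HOT3-EYFP gave more calls, all upward. Against WT, 28 mitochondrial windows were higher and 0 lower, where the genome had 0.223% higher and 0.163% lower. Against hot3-2, 47 were higher and 0 lower, where the genome had 1.58% and 0.534%. The 28 became 13 and 8 without replicates 1 and 2 of HOT3-EYFP, and 3 and 8 without replicates 1 and 2 of WT. Of the 28 windows, 17 lay in chrM:8900-12299 and 7 in chrM:361000-363499, and of the 47, 22 and 15. These calls depended on the scaling. TMM adds 0.43 to the log2 difference of HOT3-EYFP and WT, and 0.66 to that of HOT3-EYFP and hot3-2, over what the total counts give. With total counts as library size, 2 windows were called against WT (2 higher) and 14 against hot3-2 (12 higher, 2 lower), and with chrM counts as library size 0 and 16 (4 higher, 12 lower). At an unadjusted p under 0.05 edgeR with TMM held 114 and 119 windows. Both comparisons share the HOT3-EYFP libraries.

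Between the hot3 alleles and functional HOT3, 15 mitochondrial windows were called, 2 higher and 13 lower, where the genome had 1.03% higher and 1.76% lower. TMM moves this comparison by -0.34 on the log2 scale, and with total counts 5 were higher and 3 lower, with chrM counts 9 and 3. Of the 15, 5 were called under all 3 scalings, 2 higher and 3 lower, and 8 windows were called without hot3-2 replicate 1. The same sign in both alleles and no overlap of the groups were found in 10 of the 15, 2 higher and 8 lower. Among the 3 lower under all scalings is chrM:278800-278899, at 0 in hot3-3 but not lower than WT in hot3-2 (log2 0.59). Windows in which all 4 libraries of the alleles lay above the other 4 numbered 48 of 548 (8.76%), where the genome had 14.8%, and windows with all 4 below numbered 15 (2.74%), where the genome had 3.52%.

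By single length, 78 mitochondrial windows were tested at 21 nt, with 1 called higher and 6 lower in the hot3 alleles (5.26% and 5.62% over all 21-nt windows tested). At 22 nt 0 of 87 were higher and 13 lower (2.77% and 4.02%). Without WT replicate 1 the 22-nt calls were 7. At 24 nt 1 of 132 was higher and 6 lower (1.25% and 0.989%). These directions depended on the scaling. With total counts, 1 was higher and 3 lower at 21 nt, 0 and 7 at 22 nt, and 1 and 4 at 24 nt. With chrM counts most calls at 21 and 22 nt were higher, 3 against 0 lower and 4 against 1 lower, while at 24 nt 1 was higher and 3 lower.

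A pair of neighbouring windows fell furthest among those with the same sign in both alleles and no overlap. At chrM:129200-129299 the counts were 33, 35, 52 and 43 in the hot3 alleles, and 153, 139, 82 and 84 in functional HOT3. The log2 difference was -1.82 (SE 0.13, edgeR adjusted p = 2.92e-05), and the call was made in each of 8 fits that left out 1 library and under all 3 scalings. At chrM:129300-129399 the counts were 8, 12, 17 and 10 in the alleles, and 43, 35, 29 and 24 in functional HOT3. There the log2 difference was -1.83 (SE 0.28, edgeR adjusted p = 0.00338), the call was made in 2 of the 8 fits and not with total or chrM counts (-1.49 and -1.38).

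The window with the 24-nt profile, chrM:19800-19899, was also lower in the hot3 alleles. It had 68, 77, 87 and 98 counts in the alleles, and 161, 142, 223 and 203 in functional HOT3, with WT the highest. The log2 difference was -1.5 (SE 0.11, edgeR adjusted p = 3.52e-05), called in all 8 fits with a library left out and under all 3 scalings. Its 24-nt counts alone gave -1.28 (SE 0.18, edgeR adjusted p = 0.000802), with 4.28, 5.11, 4.88 and 7.58 CPM in the alleles, and 10.1, 10.1, 15.6 and 12 CPM in functional HOT3. With chrM counts as library size the difference was -0.97 and was not called. At 22 nt the window had between 0.514 and 1.32 CPM in the alleles, and between 1.83 and 3.68 CPM in functional HOT3 (log2 -1.74, edgeR adjusted p = 0.00601), a call that was made in 2 of the 8 fits.

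Of the windows already given by rank, chrM:362900-362999 fell by 1.24 on the log2 scale (SE 0.05, edgeR adjusted p = 3.53e-07) and chrM:365100-365199 by 1.23 (SE 0.05, edgeR adjusted p = 5.92e-07). Both calls were made in all 8 fits with a library left out. Neither passed the fold limit with total counts (-0.90 and -0.89) or chrM counts (-0.79 and -0.77), although the sign stayed. At single lengths chrM:365100-365199 had log2 differences of -1.38 at 21 nt, -1.20 at 22 nt and -1.47 at 24 nt, of which the 24-nt call was made under all 3 scalings. The window chrM:362300-362399 had log2 -1.18 at 21 nt and -1.31 at 24 nt, and its 24-nt call too was made under all 3.

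Calls in the other direction were few. At chrM:104200-104299 the counts were 36, 48, 47 and 48 in the hot3 alleles, and 13, 7, 14 and 12 in functional HOT3 (log2 1.60, SE 0.25, edgeR adjusted p = 0.0039), and 40.0% of them were 18 nt. Its partner on chromosome 2, 2:3494800-3494899 with the tRNA gene AT2G07761, matched to mitochondrial tRNA-Glu and chosen after its values were seen, had 26, 35, 31 and 29 counts in the alleles, and 7, 6, 16 and 13 in functional HOT3. At chrM:25000-25099 the counts were 73, 83, 78 and 100 in the alleles, and 40, 33, 26 and 29 in functional HOT3 (log2 1.02, SE 0.16, edgeR adjusted p = 0.00383). Both were called under all 3 scalings, and each in 1 of the 8 fits with a library left out.

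At single lengths, 24-nt RNAs of chrM:349700-349799 were higher in the hot3 alleles, with 11.8, 8.61, 13.3 and 14.3 CPM, against 4.75, 6.83, 3.68 and 2.76 CPM in functional HOT3. The log2 difference was 1.30 (SE 0.19, edgeR adjusted p = 0.001), called in all 8 fits and under all 3 scalings. This window has its peak at 25 nt (37.6% of counts). At 21 nt, chrM:254400-254499 had 1.28, 2.42, 1.72 and 2.96 CPM in the alleles, and 0.487, 0.285, 0.442 and 0.414 CPM in functional HOT3 (log2 2.04, SE 0.45, edgeR adjusted p = 0.00909). It too was called under all 3 scalings, but in 1 of the 8 fits.

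A window with counts in the other genotypes was at 0 in hot3-3. At chrM:278800-278899, which was singled out after its values were seen, hot3-2 had 39 and 39 counts, hot3-3 had 0 and 0, HOT3-EYFP had 54 and 30, and WT had 20 and 23. Its partner 2:3252100-3252199 in AT2G07671, matched to a cosRNA, had 30 and 31 counts in hot3-2, 0 and 0 in hot3-3, 51 and 23 in HOT3-EYFP, and 21 and 21 in WT. Against a floor of 3 counts over the group (0.195 CPM), the mitochondrial window was at least 15.7-fold lower in hot3-3 than in WT (3.06 CPM). In the whole genome 7 windows were at 0 in both hot3-3 libraries with at least 15 counts in each of the other 6, and these were 1 on chrM, 1 in its chromosome 2 copy and others elsewhere. With 1 line of hot3-3, the allele and the plants of that line cannot be told apart.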

How the data were processed

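Small RNAs of 18-day seedlings were measured in 8 libraries. The deposited values are whole-number counts, which the authors gave for each 100-bp window and each sRNA length from 18 to 26 nt, without strand. The submitters' processing notes name cutadapt 4.2, Bowtie, featureCounts 2.0.3 and DESeq2 1.34.0. The genome build of the mitochondrial windows and the placement of reads that match several places are not given in the sources used here.

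CPM are counts in every 1000000 of the library, over all windows and lengths. Windows were fitted with edgeR 4.0.16 and limma 3.58.1 (R 4.3.3, quasi-likelihood test, genotype only, all 8 libraries, TMM) where at least 10 counts fell in at least 2 libraries, and the chrM sum with total counts as library size. DESeq2 1.42.0 gave size factors for an alternative. Other tests were exact permutations over libraries (70 splits of 4 against 4, or 256 sign flips of paired values), two-sided, with Benjamini-Hochberg adjustment, computed in Python 3.11.15 with numpy 2.4.6, pandas 2.3.3 and scipy 1.17.1. A comparison of 2 libraries with 2 cannot go below p = 0.333 by permutation. A pseudocount of 0.5 was added for single windows. Sequences were compared with blastn 2.17.0+ and Biopython 1.88 and come from TAIR10.1 (RefSeq). Figures were drawn with matplotlib 3.10.9. The fitting steps were tested on simulated data.

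Windows named were the 10 with the highest mean, the highest for each length, those called between the hot3 alleles and functional HOT3 with 1 sign in both alleles and no overlap (the 5 largest each way, 3 each way at 21, 22 and 24 nt), and the 5 highest and 5 lowest in the share of 21 to 24 nt among those that averaged 50 counts or more. The members and lists were chosen with earlier results of these data known. Counts of replicate libraries over chrM windows differed by more than counting error in each genotype (chi-square per degree of freedom 2.47 to 3.81, or 1.86 to 2.20 without the 8 windows shared with the plastid), so all 8 were kept as separate libraries. This does not show whether they came from separate plants.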

Additional observations from a re-analysis of the deposited data

Results flagged for a closer look

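Dixon's test was applied to 66 sets of 4 libraries (the hot3 alleles or functional HOT3, for a level, share or window), and 1 library stood apart in 6 of them, where chance gives about 1 in 20. In 5 of the 6 it was replicate 1 of hot3-2 among the hot3 alleles, always the lowest. It had 563 CPM in chrM:365000-365099 (601 to 608 in the other 3 libraries of the alleles), 163 CPM in chrM:364700-364799 (356 to 370.4), 105 CPM in chrM:364800-364899 (316 to 349), 57.2 CPM in chrM:364900-364999 (145 to 154) and 1099 CPM in chrM:364600-365199 as a whole (1656 to 1685). These 5 values share the same windows. In that library the mitochondrial windows held 65.7% of the counts of the 23S rRNA gene piece summed over its paired windows, against 96.1% to 96.7% in the other 3. In the sixth set, replicate 1 of hot3-3 had 9.83% of its chrM counts at 23 nt, against 10.2% to 10.3% in the other 3 libraries of the alleles.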

How the results depend on the processing

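Over 304 alternatives of 25 results, 251 kept the direction and the side of the threshold (or, for a count, stayed within 1.5 times). The level of the hot3 alleles against functional HOT3 (log2 -0.11) turned to 0.051 without the 10 windows with most counts and 0.037 without the 8 windows shared with the plastid, and lay between -0.18 and -0.046 with 1 library left out. It was -0.498 with counts outside the 45S rDNA and organelles as library size, -0.456 with TMM and -0.448 with DESeq2's size factors (exact permutation p = 0.114 to 0.171). By edgeR, a test added after the data were seen, it was called in each of these 3 scalings, turned to 0.0508 without the 10 (called, adjusted p = 0.0369) and 0.0366 without the 8 (not called), and lay between -0.145 and -0.0823 with 1 left out, not called in 5 of these 8 fits. The chrM sum of hot3-2 against WT (log2 -0.04) was -0.31 with counts outside the 45S rDNA and organelles as library size, -0.26 with TMM and -0.26 with DESeq2's size factors, all called by edgeR, but 0.16 without the 10 highest windows and 0.14 without the 8, also called, and -0.10 to 0.024 with 1 library left out (above 0 without hot3-2 replicate 1). That of hot3-3 against WT (0.14) was 0.018 with counts outside the 45S rDNA and organelles, 0.27 without the 10 and 0.25 without the 8, and 0.10 to 0.17 with 1 left out, called without either library of hot3-2 (edgeR adjusted p = 0.0465 and 0.0477). That of HOT3-EYFP against WT (0.33) was 0.698, 0.760 and 0.762 in the 3 scalings, and that of HOT3-EYFP against hot3-2 (0.36) was 1.01, 1.02 and 1.02, but 0.167 without the 10 and 0.175 without the 8, all called. HOT3-EYFP against WT was 0.29 to 0.36 with 1 left out, and was not called without WT replicate 2 (0.29, edgeR adjusted p = 0.0512).

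Counts of called windows moved most. At an adjusted p under 0.05 with no fold limit they were 15 for hot3-2 against WT, 29 for hot3-3 against WT, 63 for HOT3-EYFP against WT and 54 for the hot3 alleles, and 17, 29 and 18 for the alleles at 21, 22 and 24 nt. With total counts as library size they were 2 for HOT3-EYFP against WT, 14 for HOT3-EYFP against hot3-2, 8 for the alleles, and 4 and 7 at 21 and 22 nt. With chrM counts they were 0, 16, and 3, 5 and 4 at 21, 22 and 24 nt. HOT3-EYFP against WT gave 15 with only these 2 genotypes fitted, and the alleles at 24 nt gave 11 without a filter on low counts. With 1 library left out the counts were 2 to 7, 2 to 5, 3 to 26 (lowest without WT replicate 1) and 33 to 47 in the 4 comparisons, 8 to 14 for the alleles (lowest without hot3-2 replicate 1), and 5 to 6, 7 to 15 and 6 to 9 at 21, 22 and 24 nt. With the replicate block HOT3-EYFP against WT gave 26 windows and the sum 0.33, and the block changed no call of a sum and no count by over 1.5 times; the replicate numbers only name libraries here.

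Without the 10 highest windows of each compartment, the response of chrM against the chloroplast was 0.57 (exact permutation p = 0.0286) in place of -0.10, and 0.046 without the 8 shared windows, and the share in 1% of windows lay 17.9 points above that of the chloroplast in place of 2.70 below it, and 6 of 9 lengths differed from the chloroplast in place of 9. The causes were not tested. With 1 library left out, permutation of 4 against 3 cannot go below p = 0.0571, so the counts of lengths and of top windows past the threshold were not recomputed there. Depth limits the rest, since 548 of 3670 windows had enough counts to be tested.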
